A study of Rattus norvegicus with 12 samples.

Results

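The tight junction genes of the blood-CSF barrier were followed in rat choroid plexus between the light and the dark phase. Of 9 junction symbols, CLDN1, CLDN2, CLDN3, OCLN, CGN and MPZL2 could be matched to a row of the deposited expression files through the Ensembl identifiers printed in the paper's supplementary lists, and these 6 are described among 32883 genes in all. Their identifiers are ENSRNOG00000001926 (CLDN1), ENSRNOG00000054495 (CLDN2), ENSRNOG00000046007 (CLDN3), ENSRNOG00000018297 (OCLN), ENSRNOG00000020952 (CGN) and ENSRNOG00000016085 (MPZL2). CLDN5, TJP1 and F11R were not matched, so no values are given for them. The samples were choroid plexus, of the lateral and the fourth ventricle, from 12 male Sprague-Dawley rats of 9 weeks, as whole tissue, with 1 library per rat. The rats were killed under ketamine and xylazine anesthesia, 6 at zeitgeber time 8 h (light phase) and 6 at zeitgeber time 20 h (dark phase), the latter in darkness with a red lamp. Both groups were untreated and genetically unmodified, and each phase was sampled at a single time point.

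In the choroid plexus the capillaries are fenestrated, and the barrier between blood and CSF is formed by tight junctions between the epithelial cells. Claudins are the membrane proteins whose strands set which ions pass between the cells. Claudin-2 (CLDN2) forms pores for small cations and water and is typical of leaky epithelia, whereas claudin-1 (CLDN1) and claudin-3 (CLDN3) are sealing claudins. Occludin (OCLN) is a membrane protein of the same strands, cingulin (CGN) is a cytoplasmic plaque protein that ties the junction to the cytoskeleton, and MPZL2 is an immunoglobulin-type adhesion molecule of epithelia.

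CLDN1 was the member with a clear phase difference, up-regulated by 65.7% in the dark phase. CLDN2, the most abundant member, and OCLN differed by less than the spread between libraries. CLDN3 and MPZL2 were lower in the dark phase, with calls that depended on single libraries, and CGN did not pass the test. CLDN3, CGN and MPZL2 had identifiers only in lists of genes that the study had called on these libraries, so their values and FDRs are a description and not independent evidence of a phase difference. Values are in TPM, which counts transcripts relative to all transcripts of a library and corrects for transcript length, so that levels can be compared between genes. The depth behind a value is unknown, as the files hold TPM and FPKM only. Steps of low FPKM values gave depths relative to the mean library of 0.888 to 1.37 in the light phase and 0.882 to 1.09 in the dark phase.

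The 12 libraries carried the marks of choroid plexus epithelium. Transthyretin (TTR), the main secreted protein of this epithelium, took 28.7 to 31.0% of all TPM in the dark phase and 29.98 to 30.42% in the light phase apart from light-phase replicate 2, where it took 25.4%. This library stood apart in other lists as well. The blood marker HBB had 5535 TPM there against 1406 to 1956 TPM in the other light-phase libraries, the mural cell markers RGS5 and TAGLN together had 420 TPM against 170.1 to 205 TPM, and the endothelial markers FLT1 and PLVAP together had 139 TPM against 71.4 to 84.4 TPM. In the dark phase, HBB had 839 to 2190 TPM (2189.65 at most), the mural sum was 165 to 249.9 TPM and the endothelial sum 72.1 to 113 TPM. Only 2 of 11 endothelial, 2 of 6 fibroblast, 2 of 5 mural, 1 of 3 blood and 1 of 6 glial and neuronal markers could be matched, and 0 of 7 macrophage and 0 of 4 ependymal markers. Of all 18 matched markers, limma called 8, with 4 in each direction, beside 17.5% of all genes tested, 9.52% upward in the dark phase and 8.03% downward, and 62.4% of the genes paired only through lists of called genes. They were CLIC6, KL, OTX2 and FLT1 in the dark phase and AQP1, SLC4A5, KRT8 and TAGLN in the light phase. The highest fibroblast marker was DCN, with a light-phase mean of 120.0 ± 31.5 TPM and a dark-phase mean of 116 ± 33.0 TPM (SD, n = 6 each). TAGLN, of the mural list, went from 54.7 ± 23.2 to 31.3 ± 4.24 TPM (SD, n = 6 each). The part of these lists in the results for the junction genes was not tested. In whole tissue, fewer cells of a type cannot be told apart from less RNA per cell.

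Promoter sequences are shown for the 2 claudins called in opposite directions and for CGN, which holds an E-box, the element that CLOCK and BMAL1 bind. They are from RefSeq on the build GRCr8, which is not the build of the expression files (Rnor_6.0), and run from 250 bases before to 50 bases after the transcription start. Capitals mark GC boxes (GGGCGG) and E-boxes (CACGTG) on either strand.
Cldn1, chr11:87926126-87926425, plus strand: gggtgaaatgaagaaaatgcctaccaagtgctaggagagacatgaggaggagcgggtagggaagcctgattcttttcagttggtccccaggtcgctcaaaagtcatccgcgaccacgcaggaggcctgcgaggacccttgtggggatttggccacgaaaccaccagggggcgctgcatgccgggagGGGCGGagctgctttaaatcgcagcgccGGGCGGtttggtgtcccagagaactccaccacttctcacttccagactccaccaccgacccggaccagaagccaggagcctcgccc
Cldn3, chr12:27346498-27346797, minus strand: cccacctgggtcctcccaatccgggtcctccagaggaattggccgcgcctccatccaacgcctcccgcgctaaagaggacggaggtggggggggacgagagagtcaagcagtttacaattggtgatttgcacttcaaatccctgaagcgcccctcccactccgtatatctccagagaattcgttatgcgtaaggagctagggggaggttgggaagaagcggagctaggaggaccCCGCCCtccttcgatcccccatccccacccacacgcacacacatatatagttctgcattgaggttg
Cgn, chr2:185023586-185023885, minus strand: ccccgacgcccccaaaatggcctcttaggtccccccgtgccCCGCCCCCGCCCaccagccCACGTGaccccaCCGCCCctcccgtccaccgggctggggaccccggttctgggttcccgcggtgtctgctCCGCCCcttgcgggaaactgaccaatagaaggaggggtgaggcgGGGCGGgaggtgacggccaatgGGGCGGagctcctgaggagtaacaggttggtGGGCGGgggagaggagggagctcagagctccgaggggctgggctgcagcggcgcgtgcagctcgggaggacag

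The Cldn1 promoter held 2 GC boxes, starting 64 and 36 bases before the start site, as the offsets -64 and -36. Cldn3 held 1 GC box at -16, and Cgn held 7 GC boxes and 1 E-box at -190. In Ocln neither element was found, and Cldn2 and Mpzl2 had no entry. Among 33469 promoters of the same length, 33.1% held a GC box and 6.42% an E-box. The D-box letters TTATGNAA, present in 3.66% of all promoters, and the nuclear receptor element AGGTCA, present in 16.2%, occurred in none of the 4 member promoters searched, which were those of Cldn1, Cldn3, Ocln and Cgn. The share of G and C was 60.7% in Cldn1, 58.0% in Cldn3, 65.3% in Ocln and 72.0% in Cgn, against a median of 51.7% over all promoters. A match of letters is a description of the sequence and says nothing on binding.

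**Figure D1:**
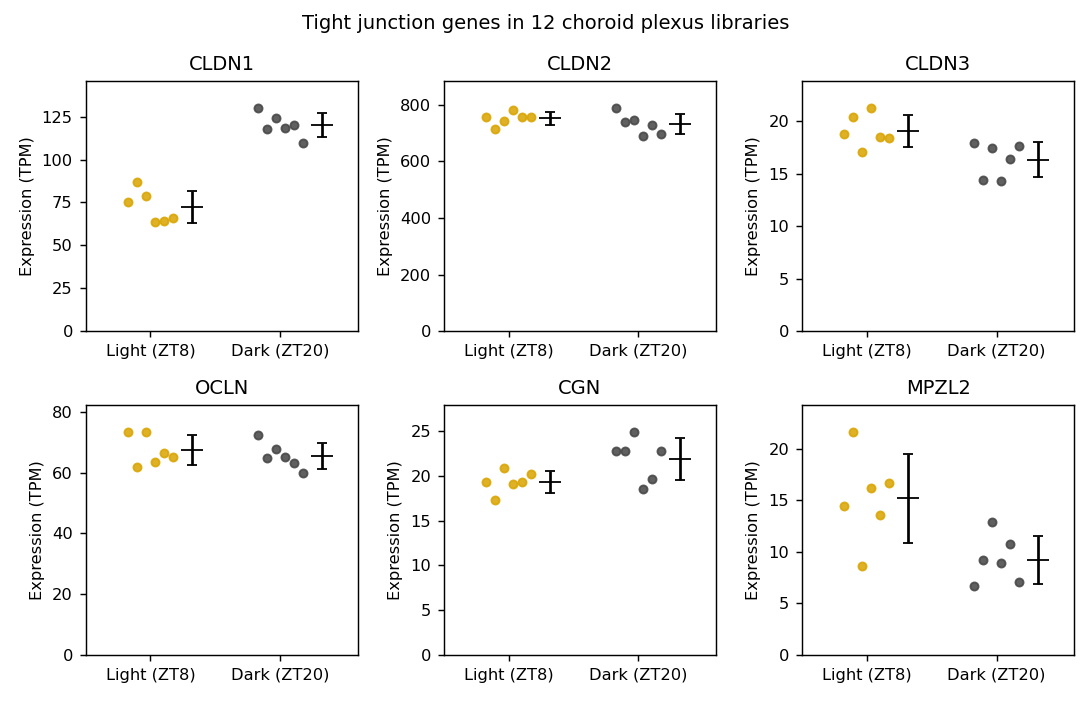
Expression in TPM of the 6 tight junction genes in each library of the light phase (yellow) and the dark phase (grey), with mean and SD (n = 6 each) beside the points and an axis from 0 in each panel. The dark-phase libraries of CLDN1 all lie above the light-phase libraries, and in the other 5 genes the phases overlap.

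Among the sealing claudins, CLDN1 had 63.8 TPM in the lowest light-phase library, a median of 70.6 TPM and 86.7 TPM in the highest, which was light-phase replicate 2. In the dark phase the lowest value was 109.55 TPM, the median 119 TPM and the highest 130.1 TPM. The phases did not overlap. The means were 72.5 ± 9.38 TPM and 120.0 ± 6.88 TPM (SD, n = 6 each), or 0.72 on the log2 scale with a standard error of 0.06 and a 95% interval of 0.58 to 0.85 (limma FDR = 9.49e-06). The exact permutation test of CLDN1 alone gave p = 0.00216 (two-sided), the smallest that 6 libraries against 6 allow. Without light-phase replicate 2 the log2 fold change was 0.75 (limma FDR = 6.29e-06).

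CLDN3, present at a far lower level, had 17.1 TPM at the lowest, 18.6 TPM at the median and 21.3 TPM at the highest in the light phase. The dark-phase values were 14.25, 16.9 and 17.9 TPM in the same order. The upper dark-phase libraries reached into the light-phase range, so that the phases overlapped. CLDN3 was 14.3% lower by the means, 16.3 ± 1.65 TPM in the dark phase against 19.1 ± 1.51 TPM in the light phase (SD, n = 6 each). The difference was -0.23 on the log2 scale (standard error 0.07, limma FDR = 0.0400). This call was lost when any 1 of 8 libraries was left out (limma FDR = 0.0543 to 0.0836). These were light-phase replicates 1, 2, 4, 5 and 6 and dark-phase replicates 2, 4 and 5. The log2 fold change in these 8 fits was -0.24 to -0.19.

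CLDN2, the pore-forming claudin, had 714, 758 and 782 TPM at the lowest, median and highest in the light phase. In the dark phase it had 691, 734 and 789 TPM. The ranges covered each other almost completely, with means of 752 ± 22.5 and 732 ± 35.7 TPM (SD, n = 6 each). The log2 fold change was -0.06 with a 95% interval of -0.16 to 0.05 (limma FDR = 0.484). By its mean level CLDN2 exceeded or equalled 99.1% of the 12513 genes tested, CLDN1 91.8% and CLDN3 60.6%.

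OCLN had 61.8, 65.9 and 73.5 TPM at the lowest, median and highest in the light phase and 59.9, 65.0 and 72.3 TPM in the dark phase. Here as well the phases covered the same range. The means were 67.3 ± 4.97 and 65.5 ± 4.22 TPM (SD, n = 6 each), giving -0.05 on the log2 scale and a 95% interval of -0.18 to 0.07 (limma FDR = 0.563). For CLDN2 and OCLN the intervals leave out a change of the size seen in CLDN1. With each library left out, the log2 fold change ranged from -0.087 to -0.028 in CLDN2 and from -0.095 to -0.026 in OCLN.

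The plaque protein gene CGN had 17.3, 19.3 and 20.9 TPM at the lowest, median and highest in the light phase. The dark-phase values were 18.6, 22.8 and 25.0 TPM. In 4 of the 6 dark-phase libraries CGN lay above every light-phase library, and 2 lay within the light-phase range. The means of 19.3 ± 1.24 and 21.9 ± 2.35 TPM (SD, n = 6 each) gave a log2 fold change of 0.16 with a 95% interval of -0.01 to 0.32 (limma FDR = 0.181). CGN passed the threshold in none of the 26 alternative fits.

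MPZL2, the adhesion molecule, was the least abundant and the most variable member. It had 8.60, 15.3 and 21.7 TPM at the lowest, median and highest in the light phase, the highest again in light-phase replicate 2. The dark-phase values were 6.70, 9.055 and 12.9 TPM. The light-phase replicate 3 with the lowest value lay inside the dark-phase range. With means of 15.2 ± 4.29 and 9.24 ± 2.32 TPM (SD, n = 6 each), MPZL2 was 64.4% higher in the light phase (-0.69 ± 0.20, SE, on the log2 scale; limma FDR = 0.0300). Its spread within a phase on the log2 scale was larger than in 91.0% of the genes tested. The call was lost without light-phase replicate 2 (limma FDR = 0.0545, log2 fold change -0.59). It was also lost without light-phase replicate 4 or 6, or dark-phase replicate 1, 4 or 6. Over these 6 libraries the limma FDR was 0.0527 to 0.0648 and the log2 fold change -0.69 to -0.59. Without light-phase replicate 3, the log2 fold change was -0.84 (limma FDR = 0.00457).

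In all, limma called 3 of the 6 members (FDR under 0.05), of which CLDN1 was up in the dark phase while CLDN3 and MPZL2 were up in the light phase, and the phases did not overlap in CLDN1 alone. Of the 12513 genes tested, 17.5% were called, 9.52% upward in the dark phase and 8.03% downward, and in 8.26% the phases did not overlap. At an unadjusted limma p below 0.05 there were again 3 members, beside 30.6% of all genes. The median log2 fold change was -0.055 in the members and -0.0067 over all genes tested. The counts in the members are not independent of the comparison, because of how CLDN3, CGN and MPZL2 were paired. Of the genes paired only through those lists, 62.4% were called here. CLDN1, CLDN2 and OCLN were paired through a list cut by expression level, in which 22.7% were called, and 1 of these 3 was called.

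A measure of the libraries differed between the phases beside these changes. Summed FPKM divided by summed TPM falls as the mean of the transcript lengths that RSEM used for a library rises. It was 0.953 to 0.987 in light-phase and 0.934 to 0.960 in dark-phase libraries (exact permutation p = 0.00433, n = 6 each). The source of this difference was not tested. With this ratio as a covariate, CLDN1 was still called, at 0.58 ± 0.09 (SE) on the log2 scale (limma FDR = 0.00412). CLDN3 had -0.27 (limma FDR = 0.244) and MPZL2 -0.63 (limma FDR = 0.332) in that fit and were not called. Over all genes, 345 were called with the covariate and 2196 without it.

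**Figure D2:**
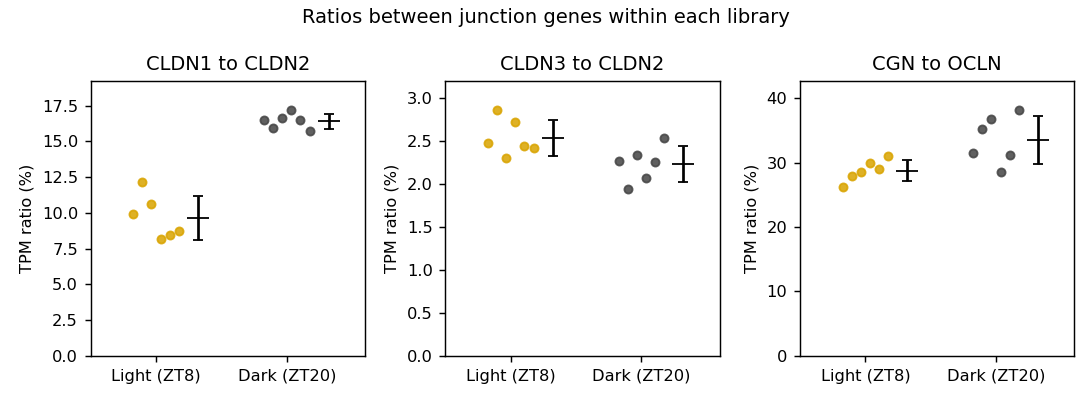
TPM ratios in percent between pairs of junction genes within each library, light phase in yellow and dark phase in grey, with mean and SD (n = 6 each) and axes from 0. The CLDN1 to CLDN2 ratio runs from 8.16 to 12.1% by light and from 15.7 to 17.2% by dark.

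Ratios between members within a library do not depend on how libraries are scaled, and 3 of them were tested. The ratios with CLDN3 and CGN are described by their values, because these genes were paired through lists of genes called on the same libraries and a p-value would not be independent of that. CLDN1 amounted to 9.67 ± 1.54% of CLDN2 by light and 16.4 ± 0.528% by dark (SD, n = 6 each). No light-phase library reached the lowest dark-phase one. The log2 ratio differed by 0.77 (standard error 0.09, exact permutation p = 0.00216, 0.00649 after Benjamini-Hochberg adjustment over the 3 ratios). Of the summed TPM of the 3 claudins, CLDN1 made up 8.60 ± 1.24% by light and 13.8 ± 0.392% by dark, CLDN2 89.1 ± 1.27% and 84.3 ± 0.360%, and CLDN3 2.26 ± 0.174% and 1.88 ± 0.174% (SD, n = 6 each). The sum itself was 844 ± 15.1 TPM and 869 ± 42.4 TPM.

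CLDN3 amounted to 2.53 ± 0.209% of CLDN2 by light and 2.23 ± 0.207% by dark (SD, n = 6 each), with overlapping phases. The difference in log2 ratio was -0.18 (standard error 0.07). CGN amounted to 28.8 ± 1.64% of OCLN by light and 33.5 ± 3.71% by dark (SD, n = 6 each). Its log2 ratio was higher by 0.21 (standard error 0.07), again with overlapping phases.

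**Figure D3:**
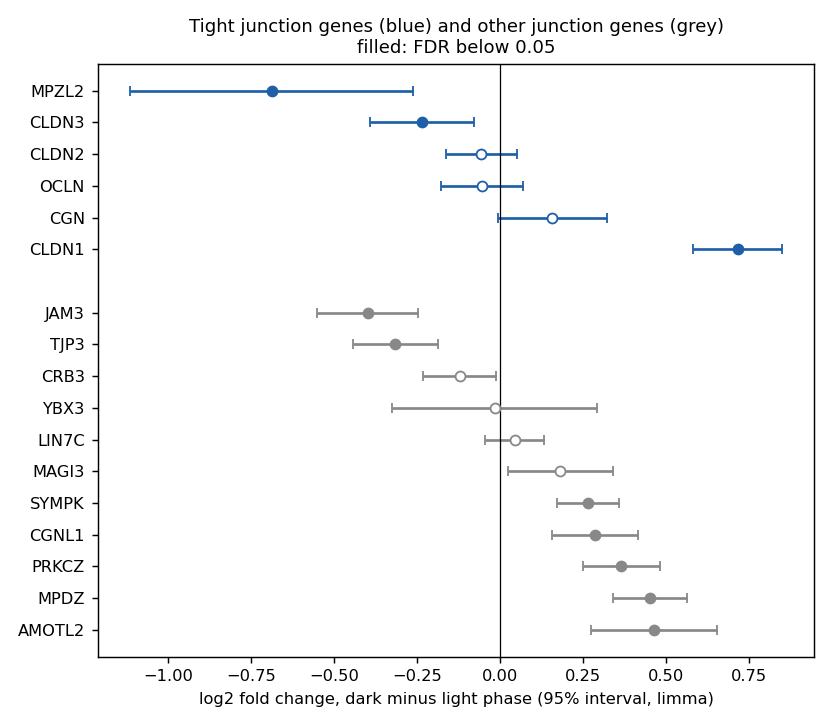
Log2 fold change, dark minus light phase, with 95% intervals from limma, for the 6 tight junction genes (blue) and 11 other junction genes (grey). Filled points have an FDR below 0.05, and CLDN1 at 0.72 and MPZL2 at -0.69 lie farthest from 0.

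Other genes of the tight junction were taken from a list of 67 symbols, of which 12 could be matched. CLDN15 was at 0.285 TPM on average and fell under the minimum of 1 TPM, so 11 were tested. Of these, limma called 5 that rose in the dark phase and 2 that fell, beside 9.52 and 8.03% of all genes, and the median log2 fold change was 0.18 against -0.0067 over all genes. As with the members, 6 of the 11 were paired only through the lists of called genes, so these counts and the median are not independent of the comparison. Of those 6, 5 were called, beside 62.4% of all genes so paired. Among the 5 paired through their level, 1 was called upward and 1 downward, beside 22.7% called in that list. Their log2 fold changes were -0.40 (JAM3), -0.12 (CRB3), -0.016 (YBX3), 0.04 (LIN7C) and 0.29 (CGNL1).

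The membrane protein JAM3, a junctional adhesion molecule that endothelial cells express as well, fell from 162 ± 15.1 to 124 ± 11.5 TPM by the dark phase (SD, n = 6 each), or -0.40 on the log2 scale (limma FDR = 0.00211), and the phases did not overlap. Among the plaque proteins, CGNL1 (paracingulin, the closest relative of CGN) rose from 152 ± 9.38 to 187 ± 15.6 TPM (SD, n = 6 each), or 0.29 on the log2 scale (limma FDR = 0.00569). TJP3, which encodes the scaffold ZO-3, fell from 35.8 ± 3.99 to 29.0 ± 2.30 TPM (SD, n = 6 each), or -0.31 on the log2 scale (limma FDR = 0.00307). Thus the plaque genes CGNL1 and TJP3 were called in opposite directions. TJP3 was paired only through the lists of called genes, so its call is a description and not independent evidence. With scaling to epithelial markers, some of which were themselves called between the phases, TJP3 had -0.27 on the log2 scale and was not called (limma FDR = 0.0541).

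MPDZ, a scaffold with many PDZ domains, rose by 40.5%, from 8.23 ± 0.629 to 11.6 ± 0.703 TPM (SD, n = 6 each; limma FDR = 9.45e-05). The polarity kinase gene PRKCZ rose by 30.8%, from 25.2 ± 1.58 to 32.9 ± 1.72 TPM (SD, n = 6 each; limma FDR = 0.000662). AMOTL2, an angiomotin-type protein, rose by 39.9%, from 14.5 ± 2.11 to 20.3 ± 1.64 TPM (SD, n = 6 each; limma FDR = 0.00314). SYMPK, an RNA 3′ end processing factor also found at junctions, rose by 21.8%, from 19.1 ± 1.47 to 23.3 ± 0.538 TPM (SD, n = 6 each; limma FDR = 0.00125). These 4 genes were paired only through the lists of called genes, and their phases did not overlap. The share without overlap was 8.26% over all genes and was not computed for genes so paired. Genes so paired were called more often than all genes (62.4% against 17.5%). Over both ways of pairing, the phases did not overlap in 4 of the 6 paired through those lists and in 1 of the 5 paired through their level. When the ratio of FPKM to TPM entered as a covariate, only MPDZ (limma FDR = 0.0209) and PRKCZ (0.0332) of the 7 called genes passed the threshold. The other 5 kept their direction in that fit, with -0.34 for JAM3, -0.36 for TJP3, 0.31 for CGNL1, 0.44 for AMOTL2 and 0.25 for SYMPK on the log2 scale, and standard errors of 0.07 to 0.14 against 0.04 to 0.09 without the covariate.

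The polarity genes CRB3, with 125 ± 6.43 and 116 ± 4.88 TPM, and LIN7C, with 65.7 ± 3.61 and 68.5 ± 2.33 TPM by light and dark (SD, n = 6 each), were not called (limma FDR = 0.125 and 0.503). CRB3 was called lower in the dark phase without light-phase replicate 2 (-0.15 on the log2 scale, limma FDR = 0.0368) and with sample weights (-0.14, limma FDR = 0.0456). The scaffold gene MAGI3 (limma FDR = 0.111) was not called either and was paired through the lists of called genes. YBX3, a nucleic acid-binding protein that docks at ZO-1, had 56.1 ± 19.4 and 54.2 ± 4.98 TPM (SD, n = 6 each; limma FDR = 0.955), and the highest light-phase value was 95.5 TPM in replicate 2.

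Between rats of the same phase, the members varied together only in part. Over the 12 libraries, with the phase means removed, CLDN2 correlated with CGN (Pearson r = 0.62) and OCLN (r = 0.61), and without light-phase replicate 2 these were 0.43 and 0.35. CLDN1 and OCLN had r = 0.15 with that library and 0.79 without it. The phase means were those of all 12 libraries in the values without light-phase replicate 2 as well. These values therefore still hold a part of the phase offset. The libraries share their scaling, and the values are a description. Among 3601 other genes with a symbol, those whose log2 values followed CLDN1 most closely over the 12 libraries were ZSCAN10 (r = 0.98), RERE (0.98) and WNK1 (0.97). Each was higher in the dark phase, which this ranking favours by itself, since CLDN1 separated the phases. ZSCAN10, a zinc finger protein, had 10.6 ± 1.38 and 23.1 ± 1.61 TPM, RERE, a corepressor, 24.8 ± 1.33 and 28.1 ± 0.370 TPM, and WNK1, a kinase that controls ion cotransporters, 17.2 ± 1.04 and 22.9 ± 0.954 TPM by light and dark (SD, n = 6 each). With the phase means removed, their r with CLDN1 was 0.66, 0.63 and 0.57. These come from the same libraries that picked the genes and are no separate check.

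**Figure D4:**
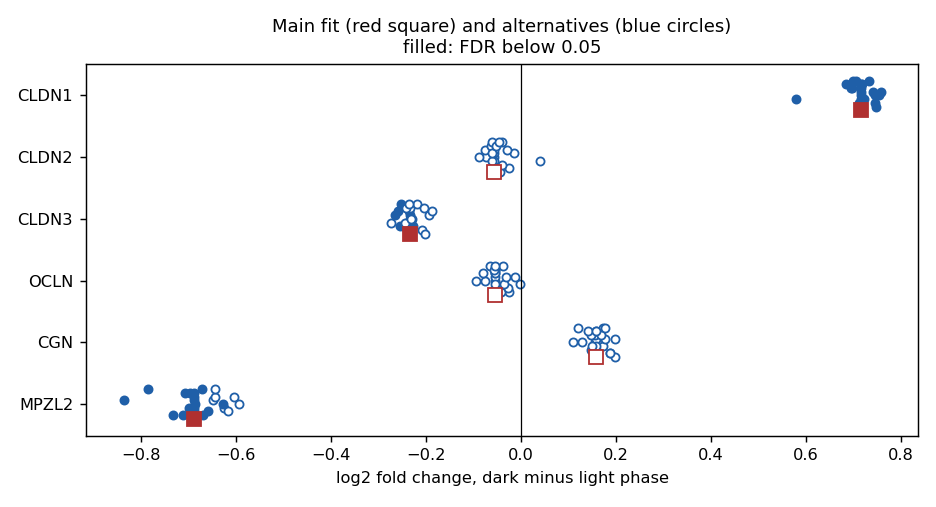
Log2 fold change, dark minus light phase, of the 6 members in the fit as reported (red squares) and in 26 alternative fits (blue circles), spread vertically only to separate points, with filled symbols where the FDR is below 0.05. CLDN1 is filled throughout, between 0.58 and 0.76, CLDN2, OCLN and CGN are open throughout, and CLDN3 and MPZL2 are partly filled.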

How the data were processed

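RNA from whole choroid plexus of 12 rats was sequenced, 6 per phase. Per the authors, STAR 2.7.9a mapped the paired-end reads on Rnor_6.0 and RSEM 1.3.3 quantified them. The deposited TPM was made by the authors from this output, and the deposited FPKM comes from the same output. The study tested read counts, which were not used here. Each library was divided by a trimmed mean of ratios (30% of ratios and 5% of levels trimmed at each end). log2(TPM + 0.5) of the 12513 genes averaging 1 TPM or more was fitted with limma 3.58.1 in R 4.3.3 on the phase alone, with a variance trend and Benjamini-Hochberg adjustment over these genes at an FDR of 0.05. Fold changes are on this scale, dark minus light phase, and understate changes of weakly expressed genes. Single values and 3 ratios between members were compared with two-sided exact permutation tests (numpy 2.4.6). On simulated data for this comparison with 12513 genes, the fit recovered 73% of 100 genes changed by 0.5 on the log2 scale and 94% of 100 changed by 1, with 11 unchanged genes called.

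Identifiers were paired with symbols through the paper's supplementary lists of transcribed, differentially expressed and plasma membrane genes, the first 2 held in part, which gave 3700 identifiers. The members and lists were chosen with earlier results of these data known. Named were all members, other junction genes called or at 20 TPM or more on average, the 3 genes most like CLDN1, and the highest and the called gene of each marker list. MAGI3 and CLDN15, outside this rule, were named to account for the list. Symbols without a pairing are not analysed here. The result for 1 marker is not reported here. Replicate numbers were taken as names of the libraries only, as the labels do not say what they stand for. Deviations of libraries with the same number correlated between -0.11 and 0.05. Whether they shared a batch was not tested. No pair of libraries was identical. The alternatives were other scalings, pseudocounts, filters, variance models, FPKM, a covariate, a replicate block and leaving out each library. The scaling to epithelial markers was added after the data were seen. Of its 10 markers, 3 were themselves called upward in the dark phase and 3 downward. Their mean log2 level differed by -0.041, dark minus light phase, so this scaling is not free of the phase.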

Additional observations from a re-analysis of the deposited data

Results flagged for a closer look

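In 40 groups of 6 libraries, a value was set apart when its gap to the next value exceeded 0.625 of the range of its group, which chance gives in about 1 group of 20, or 2 of the 40. This was so for 3 values, none of them in a member or a ratio. YBX3 had 95.5 TPM in light-phase replicate 2 against 45.4 to 49.9 TPM in the other light-phase libraries. TJP3 had 43.5 TPM (43.45) in the same library against 32.8 to 36.5 TPM. PRKCZ had 36.3 TPM in dark-phase replicate 6 against 31.6 to 33.1 TPM. Light-phase replicate 2 also held the highest light-phase values of CLDN1 and MPZL2 and the lowest of CLDN2 (714 TPM), OCLN (61.8 TPM) and CGN (17.3 TPM), none of which passed this limit.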

How the results depend on the processing

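CLDN1 was called in all 26 alternative fits, with log2 fold changes of 0.58 to 0.76, so that 1 member was called higher in the dark phase in each. The number called higher in the light phase, 2 in the fit as reported, was 1 with no filter, with TPM as deposited and after renormalisation without the 6 most abundant genes, and 0 with the FPKM to TPM ratio as covariate, with the replicate block and with scaling to epithelial markers. It ranged from 0 to 2 with each library left out. With the replicate block, CLDN3 had an FDR of 0.119 and MPZL2 of 0.0829, at unchanged log2 fold changes of -0.23 and -0.69. All genes called fell from 2196 to 1573 with the block. Scaling to epithelial markers gave -0.19 for CLDN3 (limma FDR = 0.0843) and -0.65 for MPZL2 (limma FDR = 0.0505). The labels state no pairing of same-numbered libraries, and 0 of 6 light-phase libraries correlated best with the dark-phase library of their own number. The CLDN1 to CLDN2 ratio passed in all 16 alternatives. With the replicate block, the differences in the CLDN3 to CLDN2 ratio (-0.18) and the CGN to OCLN ratio (0.21) are the same by construction, while their exact p went from 0.0346 to 0.125 and from 0.0173 to 0.0625, none of them independent of how CLDN3 and CGN were paired. With each library left out, the CLDN3 to CLDN2 difference ranged from -0.22 to -0.14 and the CGN to OCLN difference from 0.17 to 0.26.

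Of the other junction genes, 2 were called upward in the dark phase and 0 downward with the FPKM to TPM ratio as covariate. With scaling to epithelial markers, 5 were called upward and 1 downward. The call lost with that scaling was TJP3, at -0.27 (limma FDR = 0.0541) against -0.31 in the fit as reported. The 5 genes that lost their call with the covariate had log2 fold changes of the same sign and larger standard errors. With that covariate, CLDN2 turned to 0.041 and CRB3 to 0.011, neither called. YBX3, at -0.016, turned to 0.014 after renormalisation, 0.066 with sample weights and 0.025 with scaling to epithelial markers, and ranged from -0.068 to 0.13 with each library left out. Over all genes, 1191 were called upward in the dark phase and 1005 downward, against 1387 and 763 after renormalisation and 1135 and 496 with scaling to epithelial markers. The cause was not tested. The number of reads behind weakly expressed members is not known.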
